A study of Homo sapiens with 2 samples.

Results

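A group of 6 histone genes whose transcripts are made outside S phase as well as in it, and 3 genes for proteins that make or process histone mRNA were taken from a named list, 9 of 20098 protein-coding genes in all. The histone genes were H2AX, H2AZ1, H2AZ2, H3-3A, H3-3B and H1-10, and the factor genes were NPAT, SLBP and CASP8AP2. They stand beside the 64 replication-dependent histone genes as a contrast. A peak was assigned to a gene when it overlapped the interval from 1000 bp before to 1000 bp after any of its annotated transcription start sites (TSSs), and the strongest such peak is called the best promoter peak.

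Chromatin of A673, an established Ewing sarcoma cell line, was immunoprecipitated with an anti-MYBL2 antibody by the sample labels, which the methods of the study call specific for the phosphorylated, activated form. MYBL2 is a transcription factor of the MYB family that acts on cell cycle genes. The labels call the cells wild type and name no treatment. A single library each was sequenced from the ChIP and from input, the sheared chromatin before precipitation, so the values carry no replicate error and conditions could not be tested against each other. The deposited list held 66954 peaks with a median fold enrichment of 3.79 and a median width of 319 bp. Fold enrichment is the linear ratio of ChIP fragments at the peak summit to the background, with 1 added to each. The background is the local level of the input or, where that is lower, a floor that is the same across the genome. Its 95% interval here is an exact Poisson interval of the fragment count and covers counting error only.

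Replication-dependent histone genes are transcribed in S phase, and their mRNAs end in a stem-loop instead of a poly(A) tail. Variant, or replacement, histones are made throughout the cell cycle, mostly from polyadenylated mRNAs. H2A.Z marks nucleosomes next to start sites, H3.3 replaces H3 where chromatin is transcribed, H2AX is phosphorylated around DNA breaks, and H1x is a linker histone. NPAT is the cyclin E-CDK2 substrate that switches on the histone clusters in the histone locus body, CASP8AP2 (FLASH) acts there in the cleavage of histone pre-mRNA, and SLBP binds the stem-loop.

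All 9 genes had a promoter peak, beside 59.4% of protein-coding genes, and all 9 best peaks had a fold enrichment of at least 5, beside 49.6%. The median of the 9 was 17.7, against 8.67 over the 11941 protein-coding genes with a promoter peak. For the 6 histone genes the median was 25.0 (range 10.6 to 33.7). For the 3 factor genes it was 11.5 (range 10.1 to 12.4). H2AX was highest, followed by H3-3B, H2AZ1, H1-10, H2AZ2, CASP8AP2, SLBP, H3-3A and NPAT. The intervals of each gene and the next in this order overlapped in every case. The intervals of the 4 highest genes lay above those of the 4 lowest. The background under the best peaks was between 3.45 and 5.60 fragments, and at H2AX, H2AZ1, H1-10, SLBP and CASP8AP2 it was 3.45, the floor, and not a local input level.

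**Figure D1:**
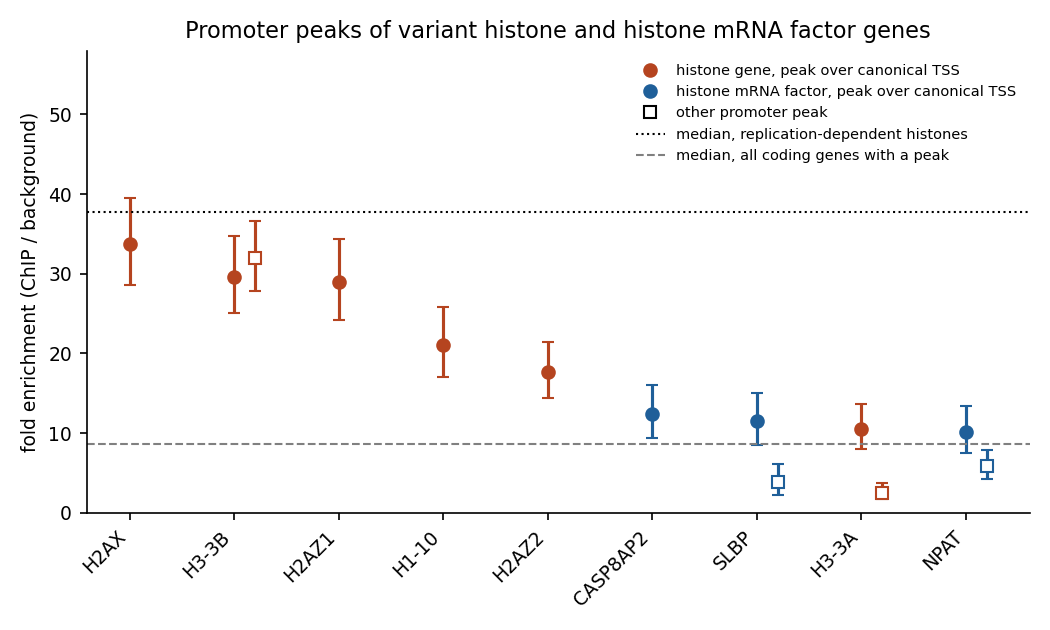
Fold enrichment (linear ratio, y axis) of each promoter peak of the 9 genes, with exact Poisson 95% intervals. Filled circles are peaks over the canonical TSS, open squares are other promoter peaks, and the lines mark the medians of 37.8 for replication-dependent histone genes and 8.67 for all protein-coding genes with a peak; H2AX, H3-3B and H2AZ1 sit between 29.0 and 33.7 and the 3 factor genes between 10.1 and 12.4.

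The promoter sequences are shown because the 4 genes with the highest best fold enrichment had a TATA box just upstream of the start and the other 5 did not. Each run is 150 bases of the GRCh37 (hg19) reference, 5′ to 3′ on the strand of the gene, just upstream of the start and outside annotated UTRs and coding sequence. Capitals mark matches, on either strand, to CCAAT (the CCAAT box, bound by NF-Y), TATAAA (the TATA box), TTTGAA or TTCGAA (the CHR, the cell cycle homology region bound by the MuvB complex, a partner of MYBL2), CAACGG or CAACTG or TAACGG or TAACTG (MYB sites) and ATTTGCAT (the octamer, bound by POU2F1). The 3 stretches of H2AX (chr11:118966176-118966325, minus strand), H3-3B (chr17:73775862-73776011, minus strand) and H1-10 (chr3:129035130-129035279, minus strand) held a TATA box.

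H2AX: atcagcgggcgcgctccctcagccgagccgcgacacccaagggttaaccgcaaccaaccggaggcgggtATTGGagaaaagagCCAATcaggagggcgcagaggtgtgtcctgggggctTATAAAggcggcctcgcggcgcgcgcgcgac

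H3-3B: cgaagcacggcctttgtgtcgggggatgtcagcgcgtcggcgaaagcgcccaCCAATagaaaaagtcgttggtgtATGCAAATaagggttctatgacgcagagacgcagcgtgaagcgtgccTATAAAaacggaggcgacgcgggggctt

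H1-10: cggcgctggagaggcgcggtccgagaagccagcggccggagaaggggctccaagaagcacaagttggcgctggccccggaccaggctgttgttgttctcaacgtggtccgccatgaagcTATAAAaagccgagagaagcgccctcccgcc

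The H2AZ1 stretch (chr4:100871513-100871662, minus strand) lay before the outermost TSS, so the TATA box of this gene fell 3′ of its last base. H2AZ2 (chr7:44887687-44887836, minus strand) and H3-3A (chr1:226250265-226250414, plus strand) encode nearly the same or the same protein as H2AZ1 and H3-3B and had no TATA box. Of the factor genes, only CASP8AP2 (chr6:90539463-90539612, plus strand) is shown. The stretch of NPAT also held a CCAAT box, together with a match to GGGCGG (the GC box), and did not lie wholly inside a promoter peak. That of SLBP held a GC box and no CCAAT box.

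H2AZ1: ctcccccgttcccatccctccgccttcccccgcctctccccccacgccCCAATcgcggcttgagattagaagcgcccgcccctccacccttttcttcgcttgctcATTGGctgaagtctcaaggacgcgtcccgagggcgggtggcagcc

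H2AZ2: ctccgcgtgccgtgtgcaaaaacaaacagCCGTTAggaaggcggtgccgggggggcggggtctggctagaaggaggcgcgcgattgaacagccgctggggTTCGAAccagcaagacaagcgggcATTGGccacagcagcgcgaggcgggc

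H3-3A: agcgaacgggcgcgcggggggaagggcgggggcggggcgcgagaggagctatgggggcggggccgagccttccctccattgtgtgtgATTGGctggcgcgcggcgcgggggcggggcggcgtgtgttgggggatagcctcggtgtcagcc

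CASP8AP2: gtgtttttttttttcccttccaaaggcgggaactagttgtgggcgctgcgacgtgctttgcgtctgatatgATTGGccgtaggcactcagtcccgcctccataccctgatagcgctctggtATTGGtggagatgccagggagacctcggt

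H2AX (ENSG00000188486, chr11:118964584-118966175, minus strand, a single exon) lay wholly within 1 peak of 5177 bp, chr11:118961663-118966839. Its fold enrichment was 33.7 (28.5 to 39.5) from 149 fragments at the summit, which ranked it 114th among all peaks and above 98.9% of protein-coding genes with a promoter peak. The summit was at +42 relative to the canonical TSS, in the 5′ UTR. The peak reached 4512 bp downstream of the TSS, beyond the end of the gene.

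H2AX is the member that carries the mark of a replication-dependent histone mRNA. A match to the histone stem-loop consensus, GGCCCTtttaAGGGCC with the stem in capitals, was found at chr11:118965608-118965623 on the minus strand, in the 3′ UTR and 53 bp after the last coding base. It was in none of the other 8 genes, in all 64 replication-dependent genes and in 75 of 20098 protein-coding genes. The fold enrichment of H2AX lay within the range of the replication-dependent genes, of which 31 were higher.

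H2AZ1 (ENSG00000164032, chr4:100869243-100871512, minus strand), 1 of the pair of genes for H2A.Z, had a fold enrichment of 29.0 (24.2 to 34.4) from 128 fragments. Its peak, chr4:100869621-100872343, spanned 2723 bp with the summit at +30, and also held 5 of 6 TSSs of the divergent lncRNA gene H2AZ1-DT. A second peak of 1959 bp, from +2120 to +4078, had a fold enrichment of 13.3 (10.7 to 16.4). It overlapped the 3′ end of the gene at +2189, but most of it and its summit at +3061 lay downstream of the gene. Whether it held a start of another gene was not examined, so it cannot be assigned to H2AZ1. Together the 2 peaks covered 86.4% of the gene. Of protein-coding genes with a promoter peak, 9.11% had a separate 3′-end peak of at least 5-fold and 4.23% of at least 8-fold. Here too a peak counted when it overlapped 1000 bp either side of the last base of the gene, also beyond it.

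H2AZ2 (ENSG00000105968, chr7:44866390-44887686, minus strand), which encodes the other H2A.Z protein, had a fold enrichment of 17.7 (14.4 to 21.5) from 99 fragments. The peak, chr7:44887084-44889261, spanned 2178 bp. Its summit was at -381, upstream of the gene and near the start of the divergent lncRNA gene H2AZ2-DT at -329, so the peak cannot be assigned to one of the 2 starts. The other 9 peaks in the gene were weak, from 2.32 to 3.82.

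The H2A.Z genes differed less in fragments than in fold enrichment. The ratio of summit fragments of H2AZ1 to H2AZ2 was 1.29, with a 95% interval of 0.987 to 1.70 that includes equality. The ratio of their fold enrichments was 1.64, since the background was 4.66 fragments at H2AZ2 and the floor of 3.45 at H2AZ1.

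H3-3B (ENSG00000132475, chr17:73772515-73781974, minus strand), 1 of the pair of genes that encode H3.3, had 2 strong promoter peaks. The peak over the canonical TSS, chr17:73774793-73776378, had a fold enrichment of 29.6 (25.1 to 34.7) from 151 fragments, was 1586 bp wide and had its summit at -4. The best peak, chr17:73780494-73782362, had 32.0 (27.8 to 36.6) from 210 fragments at -4877, where other annotated H3-3B transcripts start. This region also held 5 of 8 TSSs of the divergent protein-coding gene UNK, among them the canonical one at -5027, so it cannot be assigned to H3-3B alone. Another peak, over the 3′ UTR, had a fold enrichment of 8.82 (6.61 to 11.5) and a width of 1366 bp.

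H3-3A (ENSG00000163041, chr1:226249552-226259720, plus strand) encodes the same H3.3 protein and had the lowest fold enrichment of the 6 histone genes, 10.6 (8.01 to 13.7) from 55 fragments. Its peak, chr1:226248989-226252372, was broad for this height, with 3384 bp and the summit at +125 in an intron. It also held the start of the lncRNA gene H3-3A-DT at -818. A second promoter peak at +2243 had a fold enrichment of 2.52, and 7 further peaks in the gene ranged from 2.31 to 4.40. With its 9 peaks H3-3A had 68.8% of its length covered, against a median of 3.07% over protein-coding genes with a promoter peak. The share depends on gene length, 10169 bp for H3-3A, and the median was not matched for length.

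The H3.3 genes stood further apart than the H2A.Z genes. At the canonical starts the ratio of summit fragments of H3-3B to H3-3A was 2.75 (2.00 to 3.81), and with the best peak of H3-3B it was 3.82 (2.83 to 5.24). Both intervals excluded equality, but they cover counting error in 1 library and not the spread between cultures.

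H1-10 (ENSG00000184897, chr3:129033614-129035129, minus strand, a single exon), the gene for the linker histone H1x, had a fold enrichment of 21.1 (17.1 to 25.8) from 93 fragments. Like H2AX it lay wholly within 1 broad peak, chr3:129030476-129035646, of 5171 bp with the summit at +62. The antisense lncRNA gene H1-10-AS1 had 2 of its 4 TSSs in the peak, the nearest at +766. Of protein-coding genes with a promoter peak, 104, or 0.871%, lay wholly within 1 peak, and 24 of these were replication-dependent histone genes. Such containment depends on gene length, 1516 bp for H1-10 and 1592 bp for H2AX, and the share was not matched for length.

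**Figure D2:**
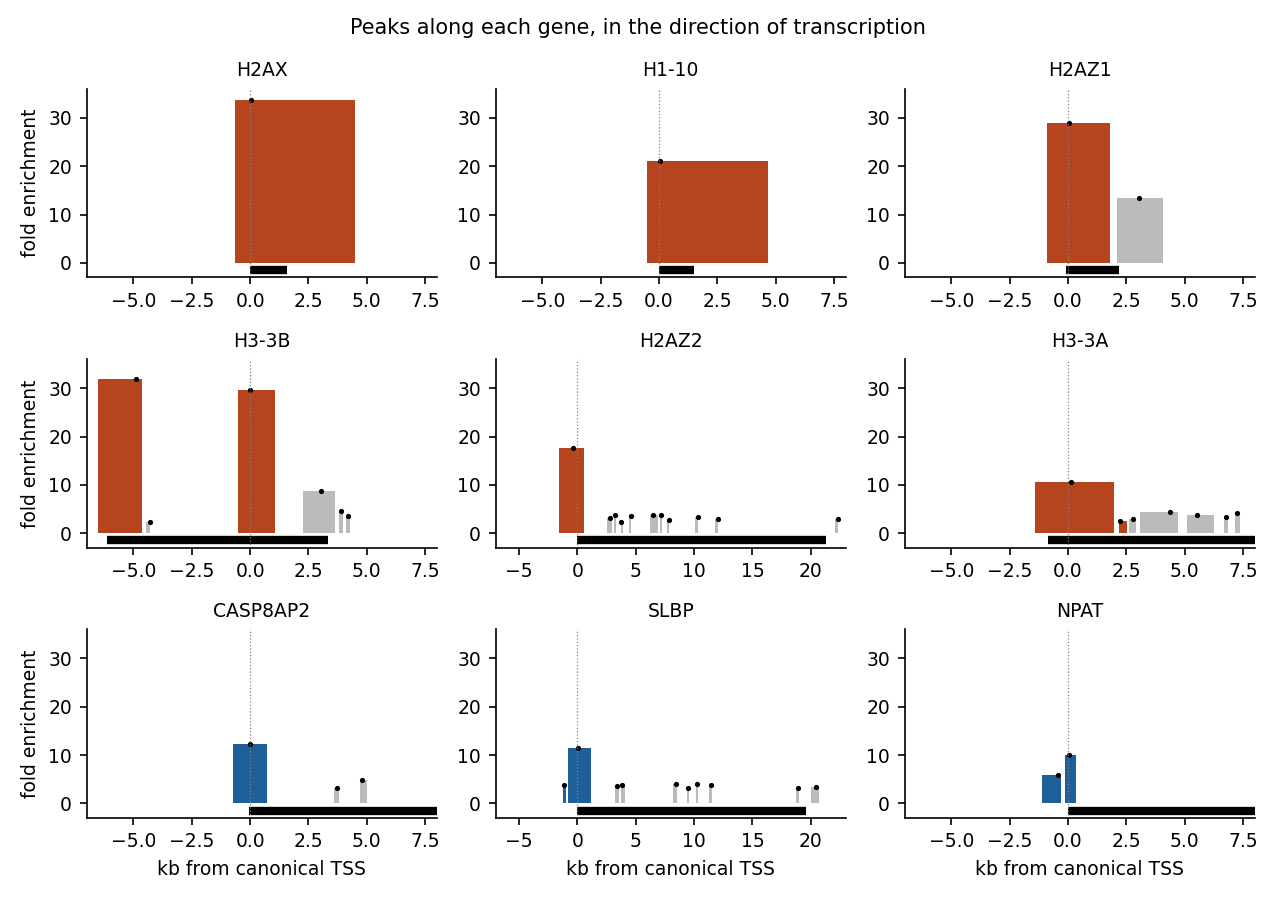
Peaks along each of the 9 genes in kb from the canonical TSS (x axis), in the direction of transcription; bar width is the extent of the peak, bar height its fold enrichment at the summit and not a signal profile, the dot marks the summit, and the black bar is the gene, cut at the panel edge for H3-3A, CASP8AP2 and NPAT. Coloured bars are promoter peaks and grey bars other peaks; one peak covers the whole of H2AX and of H1-10, whereas NPAT has narrow peaks at its start.

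The best peaks of the 3 factor genes were lower than those of all histone members but H3-3A, and their summits lay between +8 and +58. NPAT (ENSG00000149308, chr11:108027942-108093365, minus strand) had the lowest best peak of the 9 genes, with a fold enrichment of 10.1 (7.45 to 13.4) from 46 fragments. This peak, chr11:108093018-108093493, was 476 bp wide with the summit at +58, and 20.9% of best promoter peaks were narrower. A second peak of 822 bp with its summit at -444 had 5.84 (4.27 to 7.83) from 43 fragments. It held starts of ATM, the DNA damage kinase gene transcribed in the opposite direction, with the nearest of the 13 ATM TSSs in the peak at -406. The starts of NPAT and ATM thus had a peak each, with nearly equal fragment counts and a background of 3.66 fragments on the NPAT side and 6.53 on the ATM side.

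SLBP (ENSG00000163950, chr4:1694458-1714071, minus strand) had a fold enrichment of 11.5 (8.56 to 15.0) from 50 fragments. The peak, chr4:1712878-1714845, was 1968 bp wide with its summit at +45. It held 2 of the 17 TSSs of TACC3, a mitotic spindle gene, at -539 and beyond, while the canonical TACC3 start was at -9202. A second promoter peak at -1114 had 3.82 from 16 fragments, and 7 further peaks in the gene ranged from 3.15 to 4.04.

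CASP8AP2 (ENSG00000118412, chr6:90539613-90584155, plus strand) had a fold enrichment of 12.4 (9.34 to 16.1) from 54 fragments. The peak, chr6:90538943-90540362, was 1420 bp wide with the summit at +8. It was the member with no start of another gene in a promoter peak. Further along the gene, 7 peaks ranged from 3.17 to 4.86.

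The summits of 7 of the 9 genes lay within 150 bp of the canonical TSS, beside 53.8% of protein-coding genes with a promoter peak. H2AZ2 and the best peak of H3-3B were the exceptions. The best peaks of the 6 histone genes had widths from 1869 to 5177 bp, against a median of 865 bp over protein-coding genes. Among the factor genes the widths were 476, 1420 and 1968 bp. Of the 100-base windows within 1000 bp of the canonical TSS, 100% were unique in the genome in 8 genes and 99.6% in H3-3B.

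**Figure D3:**
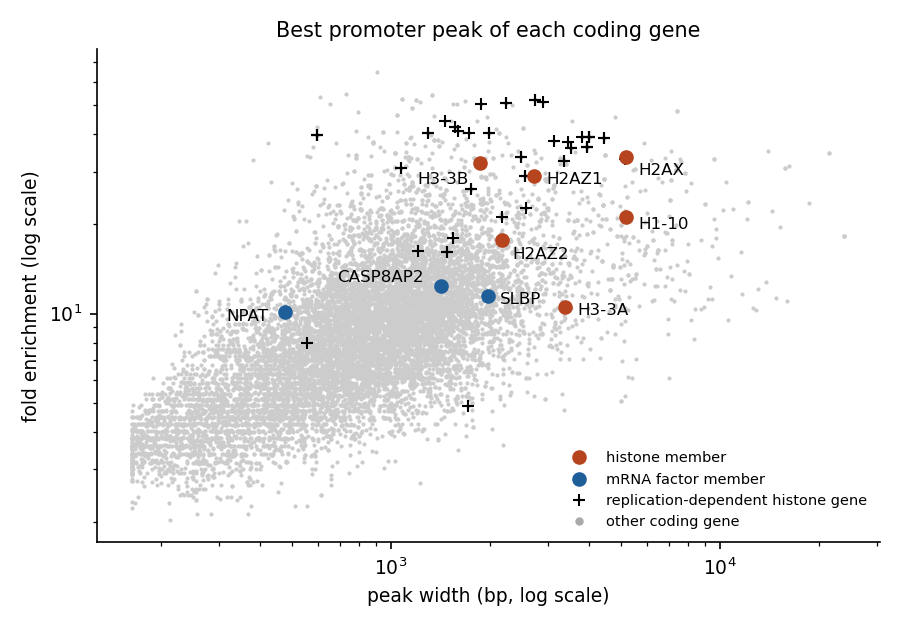
Width in bp (x axis, log scale) and fold enrichment (y axis, log scale) of the best promoter peak of each protein-coding gene. H2AX and H1-10 lie at the broad end with 5177 and 5171 bp, H3-3A is broad but low, NPAT is narrow with 476 bp, and crosses mark replication-dependent histone genes.

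A TATA box starting between -35 and -20 was present in H2AX, H2AZ1 and H1-10, at -31 in each, and in H3-3B, at -29. These are the 4 genes with the highest best fold enrichment. By summit fragments the order differs, since H2AZ2, without the box, had 99 and H1-10 had 93. The background was 4.66 at H2AZ2 and the floor of 3.45 at H1-10, and their fold enrichment intervals overlapped. In H3-3B the box lies at the canonical start, where the peak had a fold enrichment of 29.6, and not at the best peak at -4877. The element was in 4 of 9 members, in 35 of 64 replication-dependent histone genes (54.7%) and in 3.76% of protein-coding genes. That it fell on the 4 members highest in fold enrichment was noticed after the values were seen and was not tested.

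A CCAAT box was in the 150-base stretch of 7 genes, all but H1-10 and SLBP. The share was 26.5% over protein-coding genes and 82.8% over replication-dependent histone genes. H2AX had 2 CCAAT boxes on opposite strands, with first bases at -81 and -67. H3-3B was the member with an octamer, at -76 on the strand opposite to transcription, an element found in 26.6% of replication-dependent genes and 0.925% of protein-coding genes. The GC box (GGGCGG) was in 5 stretches, beside 51.0% of protein-coding genes, and 5 of its matches were in H3-3A. The shares over all genes are for stretches of the same length.

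The motifs tied to MYBL2 itself, the CHR and the MYB site, were each in 1 member in the stretches and in 1 member at the best summits. Such counts are too small to set apart from the shares over protein-coding genes. In the stretches, a CHR and a MYB site were both found in H2AZ2 and in no other member, beside 6.13% and 11.6% of protein-coding genes. Within 50 bp of the best summit, H2AZ1 had a CHR (TTTGAA at +4), beside 3.93% of protein-coding genes with a peak, and H2AX had a MYB site (TAACTG, on the opposite strand at +2), beside 8.60%. An E2F site (TTTCCCGC, TTTGGCGC, TTTCGCGC or TTTGCCGC) was within 50 bp of the H2AZ2 summit, beside 1.93% of protein-coding genes with a peak and 5.88% of replication-dependent histone genes with one. No member had a CCAAT box there, and 10.0% of protein-coding genes did. A match is a match of letters and says nothing of which protein was bound. Neither the ETS core (CCGGAAGT) nor the cAMP response element (TGACGTCA) was found in any stretch, beside 3.68% and 1.87% of protein-coding genes.

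**Figure D4:**
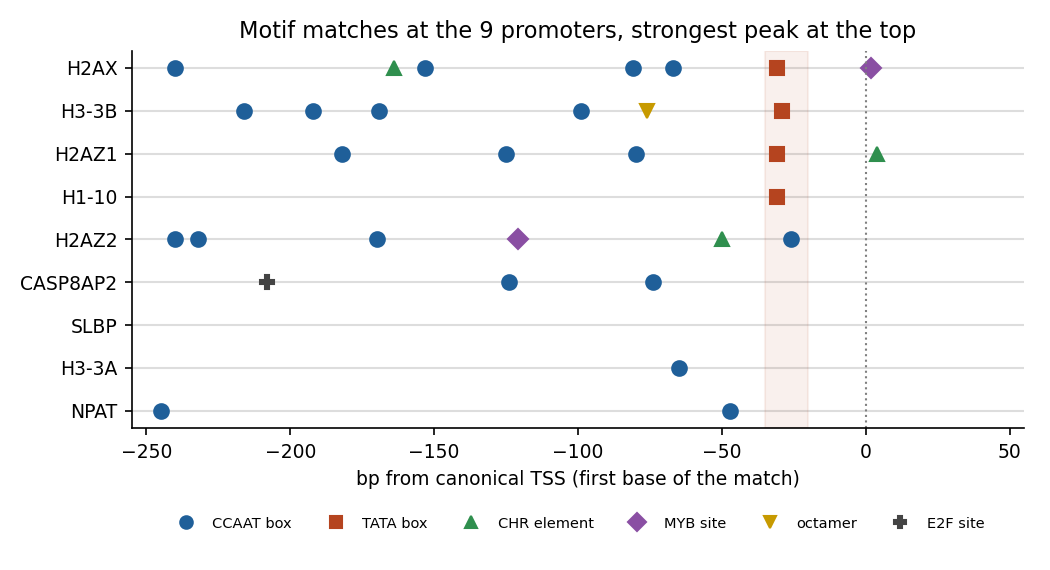
First base of each motif match in bp from the canonical TSS (x axis) for the 9 genes, ordered by best fold enrichment with the strongest at the top; GC boxes are not drawn. The shaded band runs from -35 to -20 and holds a TATA box in the 4 uppermost genes and in no other.

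The 8 genes with a CpG ratio (observed over expected CpG within 500 bp of the TSS) above the median of 0.724 ranged from 0.856 in H1-10 to 1.03 in H3-3B. CASP8AP2 was below it with 0.661. H3-3A and H2AX had close ratios, 0.927 and 0.923, with fold enrichments of 10.6 and 33.7.

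Replication-dependent histone genes had a promoter peak in 51 of 64 cases (79.7%, exact 95% interval 67.8% to 88.7%), beside 59.4% of protein-coding genes. Their median best fold enrichment was 37.8 with quartiles of 30.8 and 40.4. These genes are clustered, and the 51 genes had 31 distinct best peaks. H1-4 and H2BC5 were highest with 52.0 at a shared peak, H4C8 was at the median, and H3C6 was lowest with 4.91. Every member was below the median of the replication-dependent genes, H2AX and H3-3B least. The number of replication-dependent genes with a higher value was 31 for H2AX, 37 for H3-3B, 39 for H2AZ1, 45 for H1-10, 46 for H2AZ2 and 49 for each of H3-3A, NPAT, SLBP and CASP8AP2. Of the 13 genes without a peak, H4C14, H3C14, H3C15 and H4C15 had no unique 100-base window around the start, and reads there cannot be placed at one position.

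Among the other variant histone genes of somatic cells, 5 of 6 had a promoter peak, beside 59.4% of protein-coding genes. CENPA, the centromeric H3, had a fold enrichment of 21.3 (17.3 to 26.1), close to the 21.1 of H1-10. MACROH2A2 had 11.3 and MACROH2A1 10.8. H2AJ had 3.91, and H3-5 had no promoter peak.

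Of the other genes of histone mRNA processing and the histone locus body, 13 of 15 had a promoter peak, beside 59.4% of protein-coding genes. Their median of 9.09 compares with 11.5 for NPAT, SLBP and CASP8AP2. UPF1, an RNA helicase that acts in the decay of histone mRNA, was highest with 13.7, followed by ZNF473 with 13.1. CCNE2, a cyclin E gene, had 4.72, and HINFP, an activator of histone H4 genes, 6.29. CCNE1 and LSM11, a protein of the U7 snRNP, had none. The interval of UPF1 was 10.5 to 17.6, which overlapped those of NPAT, SLBP and CASP8AP2.

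**Figure D5:**
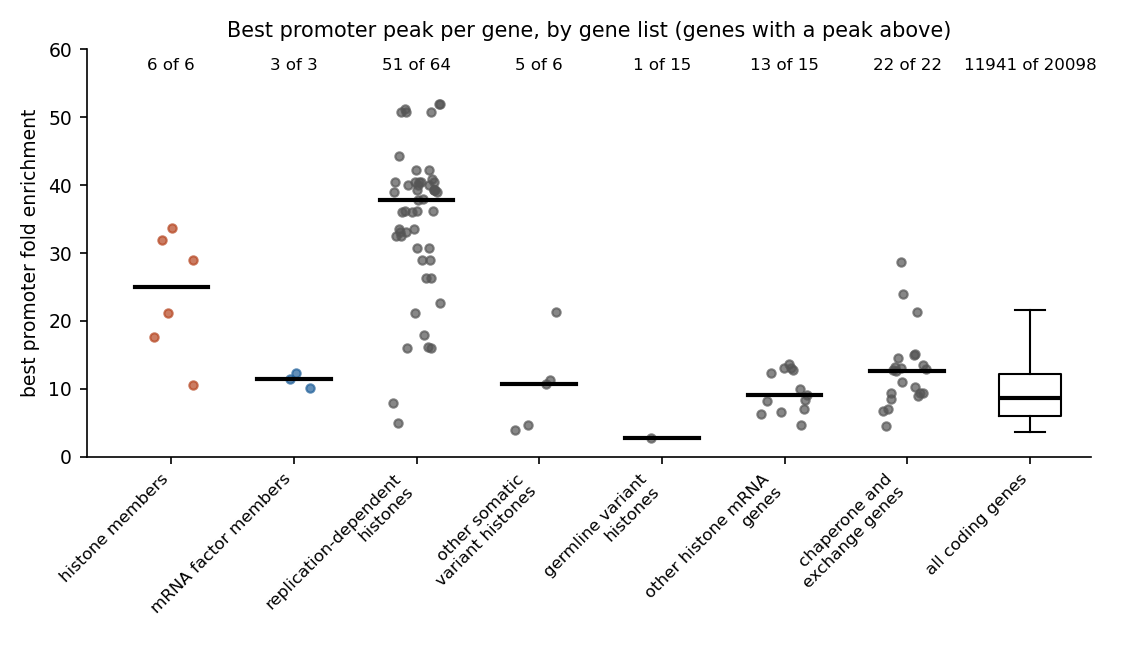
Best promoter fold enrichment (y axis) of each gene with a promoter peak, by gene list; points are genes, thick lines medians, and the numbers above count genes with a peak among all genes of the list. The box of all protein-coding genes spans the quartiles, 5.94 to 12.1, with whiskers at the percentiles 5 and 95; the replication-dependent histone genes sit highest with a median of 37.8 and the 6 histone members next with 25.0.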

How the data were processed

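Chromatin immunoprecipitation followed by sequencing was done on 1 MYBL2 ChIP and 1 input library of A673 cells, as 100-base single reads. Per the labels and the study's methods, the authors aligned reads to hg19 with Bowtie2 (2.1.10 in the submitters' processing notes), kept those with a mapping quality of at least 20 and called peaks with MACS2 (2.0.10) against the input at a q-value of 0.05. What a further cleaning of the list removed is not given in the sources used here. The deposited columns used were the linear fold enrichment (a ratio), the −log10 p-value and −log10 q-value at the summit, and the summit offset. The deposited score, which restates the q-value, was not needed.

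Fragment counts at summits were solved from the fold enrichment and the −log10 p-value with the Poisson formula of MACS2. This gave a whole number for each of the 66954 peaks (largest misfit on the −log10 scale 3.49e-05) and was tested on simulated data. Counts ranged from 11 to 293. If 164 bp, the smallest peak width, is the fragment length, the background floor would correspond to a ChIP depth of about 56800000 reads. The study reports a close number of uniquely mapped reads for its MYBL2 ChIP. Intervals are exact Poisson or Clopper-Pearson at 95%.

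TSSs came from all transcripts of GENCODE 44 on GRCh37, whose coordinates are those of hg19. Peaks were matched to 20098 protein-coding and 18592 lncRNA genes. Python 3.11.15, numpy 2.4.6, scipy 1.17.1 and pysam 0.24.0 were used. All 9 members were named. Beside them the text names every gene with a TSS in their promoter peaks, all other somatic variant histones, the highest, median and lowest replication-dependent gene, and the 2 highest and lowest genes of each other list with those lacking a peak. Of the genes this rule names, 2 are not reported here. The members and lists were chosen with earlier results of these data known. Alternatives were other windows, TSS sets, overlaps and thresholds.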

Additional observations from a re-analysis of the deposited data

How the results depend on the processing

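All 9 genes kept a promoter peak at a −log10 q of at least 5, at a fold enrichment of at least 5, in windows of 500 bp either side or from 5000 bp upstream to 1000 bp downstream, with the summit in the window, with an overlap of at least 100 bp and with the outermost or the canonical TSS, and their median was 17.7 in each. The restriction to the canonical TSS was added after seeing the data. It took the ratio of summit fragments of H3-3B to H3-3A from 3.82 to 2.75, outside the counting interval of the first, and the fold enrichment of H3-3B from 32.0 to 29.6, within its interval, because the upstream peak shared with UNK then no longer counts. Over the same settings the replication-dependent histone genes with a promoter peak numbered 46 to 55 and their median was 36.2 to 37.9. Leaving out genes with under 50% unique windows was also added after seeing the data. It removed H4C14, H3C14, H3C15 and H4C15, which had no peak, and a gene with a peak. Of the genes left, fewer than the 64 of the other settings, 50 had a peak. Motif matches depended on the window: the 9 genes had 5 motifs in all within 50 bp of the best summit, 11 within 100 bp of it and 21 within 100 bp of the canonical TSS. No paired analysis was possible because the series holds 1 ChIP and 1 input library. For the same reason neither could be left out. With 46 to 55 fragments at the summits of NPAT, SLBP, CASP8AP2 and H3-3A, their order among themselves was not detectable at this depth.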

Other observations

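Genes whose products deposit or exchange histones also had promoter peaks. All 22 genes of the chaperone and exchange list had one, beside 59.4% of protein-coding genes. Their median fold enrichment was 12.7, against 8.67 over protein-coding genes with a promoter peak. SRCAP, the ATPase that exchanges H2A.Z into nucleosomes, was highest with 28.7 (24.2 to 33.8), close to the 29.0 of H2AZ1. CHAF1A, the large subunit of the CAF-1 chaperone of replication, had 24.0 (19.7 to 29.0). The lowest were ATRX, an H3.3 chaperone component, with 4.55 and SSRP1, a FACT subunit, with 6.71. Among variant histones of the germline, 1 of 15 had a promoter peak, H2BK1 with 2.79, beside the same 59.4%.

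The TATA box was followed up over all protein-coding genes after the values of the 9 genes were seen. Of the 756 genes with TATAAA starting between -35 and -20, 28.2% had a promoter peak, beside 60.6% of the 19342 genes without it. Among genes with a peak, a best fold enrichment of at least 20 was found in 30.0% of the 213 genes with the TATA box and in 5.90% of the 11728 without it. Without replication-dependent histone genes these shares were 20.0% of 185 and 5.76% of 11705, and the medians were 9.21 and 8.65. H2AX, H2AZ1, H3-3B and H1-10, which prompted the count, were kept and are among the 37 genes that make up the 20.0%. The follow-up is therefore not independent of the first observation. Genes with a TATA box thus had a promoter peak less often in this list, and a larger share of their peaks was strong. These are descriptions of 1 library, and no test was run.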
